A study of Mus musculus with 68 samples.

Results

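A run of 7 neighbouring genes of mouse chromosome 12 was examined, in RefSeq order Nkx2-1, Nkx2-9, Pax9, Slc25a21, Mipol1, Foxa1 and Ttc6. They were chosen by the level of Slc25a21 on these arrays, which stood out in late OPN-null TRAMP mice, so the values of that group describe the choice and carry no test. The question was whether the high Slc25a21 level extended to the genes beside it. Of the 7 genes, 5 had a named probe set among 19505 named genes and 22206 probe sets tested. Mipol1 and Ttc6 had none that was named, by symbol, synonym or Entrez identifier, and were not analysed here. Each of the 5 measured genes had 1 probe set.

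Gene expression was measured on 68 Clariom S arrays of total RNA from mouse tissue labelled prostate tumors, of which 67 were used. TRAMP +/- mice carry the SV40 T antigens behind the probasin promoter, which acts in the androgen-dependent epithelium of the prostate. Mice without the transgene (TRAMP -/-) carry the same tissue label. The early groups held 7 TRAMP mice of 16 weeks, 6 OPN-null TRAMP mice (OPN-/-TRAMP +/-, lacking osteopontin) of 16 to 17 weeks and 6 SPARC-null TRAMP mice (SPARC-/- TRAMP +/-, lacking the matrix protein SPARC) of 18 to 19 weeks. In the late groups were 7 TRAMP mice of 24 to 25 weeks, 3 OPN-null TRAMP mice of 24 to 27 weeks and 9 SPARC-null TRAMP mice of 24 to 29 weeks. The mice without it were 4 wild-type mice of 16 weeks and 6 of 24 weeks, 5 OPN-null mice of 16 to 17 weeks and 3 of 24 weeks, and 7 SPARC-null mice of 16 to 18 weeks and 4 of 25 to 27 weeks. Array O12, whose SPARC-null label and OPN-series code disagree, was left out. The labels give each array an animal code of its own (T, TRAMP; OT, OPN-null TRAMP; ST, SPARC-null TRAMP; B, wild type; O, OPN-null; S, SPARC-null) and do not say which tumours were adenocarcinoma and which neuroendocrine. Sparc itself was lower on the 26 SPARC-null arrays (5.73 to 6.96, median 6.29) than on the 41 others (6.18 to 7.56, median 6.72), but the ranges overlapped, and for Spp1, the osteopontin gene, no named probe set was used, so the OPN labels could not be checked.

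Slc25a21 encodes the mitochondrial oxodicarboxylate carrier, which moves 2-oxoadipate, an intermediate of lysine and tryptophan breakdown, into mitochondria. Pax9 is a paired-box transcription factor of pharyngeal pouch, tooth and skeletal development, and Nkx2-1 and Nkx2-9 are homeobox factors, Nkx2-1 being the master regulator of lung and thyroid. Foxa1 is a forkhead pioneer factor that opens chromatin for the androgen receptor in prostate luminal cells. In the RefSeq annotation Pax9 and Slc25a21 are transcribed towards each other and their spans overlap, and the spans of Foxa1 and Ttc6, which are transcribed away from each other, also overlap. How far each probe set can separate the overlapping genes was not tested.

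The promoters of Slc25a21, Pax9 and Foxa1 are shown because these are the 3 genes whose levels the results turn on. RefSeq promoter windows (GRCm38.p6) were found for 6 of the 7 genes, with a pair of start sites for Slc25a21, and the 250 bases before each start are printed 5′ to 3′ on the gene's strand. Capitals mark matches, on either strand, to TGTTTAC (a forkhead motif), CAAGTG (an NKX2 motif), CAGCTG (an E-box) or AGAACA (an androgen receptor motif).
Slc25a21, first start, chr12:57197473-57197722, minus strand: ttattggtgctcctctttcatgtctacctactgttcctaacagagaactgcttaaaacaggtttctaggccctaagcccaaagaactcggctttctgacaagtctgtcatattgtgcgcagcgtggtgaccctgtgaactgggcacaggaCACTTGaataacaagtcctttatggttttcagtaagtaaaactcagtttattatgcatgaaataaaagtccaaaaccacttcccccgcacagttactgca
Slc25a21, second start, chr12:57160644-57160893, minus strand: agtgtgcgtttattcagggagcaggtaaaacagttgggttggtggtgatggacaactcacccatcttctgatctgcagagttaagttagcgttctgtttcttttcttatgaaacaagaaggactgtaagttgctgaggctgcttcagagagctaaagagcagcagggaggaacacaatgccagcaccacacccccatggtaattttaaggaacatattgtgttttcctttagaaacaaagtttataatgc
Pax9, chr12:56695221-56695470, plus strand: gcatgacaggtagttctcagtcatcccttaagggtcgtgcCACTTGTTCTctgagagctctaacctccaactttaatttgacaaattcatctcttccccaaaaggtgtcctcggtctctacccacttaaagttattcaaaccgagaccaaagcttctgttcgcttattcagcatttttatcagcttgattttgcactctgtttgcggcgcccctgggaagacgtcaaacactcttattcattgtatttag
Foxa1, chr12:57546112-57546361, minus strand: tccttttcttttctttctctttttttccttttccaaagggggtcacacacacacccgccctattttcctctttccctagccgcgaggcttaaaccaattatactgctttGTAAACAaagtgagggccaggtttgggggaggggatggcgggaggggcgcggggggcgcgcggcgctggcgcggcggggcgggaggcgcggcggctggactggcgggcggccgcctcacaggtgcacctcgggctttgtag

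The windows of Slc25a21 and Pax9 shared the NKX2 match, once at the first Slc25a21 start and once in Pax9, where its 6 bases run into an androgen receptor motif and overlap it. Of all 32851 promoter windows of 300 bases, 13.6% held the NKX2 motif and 19.0% the androgen receptor motif, so neither match is rare. The Foxa1 window held 1 forkhead match, which 3.65% of all windows held. The second Slc25a21 window and the windows of Nkx2-1 and Nkx2-9 held none of the 4 motifs. An E-box, present in 16.3% of all windows, was found in that of Ttc6 alone among these genes, beside an NKX2 match. The Foxa1 window had 26 CpG dinucleotides and the Slc25a21 windows 4 and 3, against a median of 7 over all windows.

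Slc25a21 was high in the 3 late OPN-null TRAMP mice and low on the 64 other arrays. The RMA log2 value was 9.91 on array OT2, 8.80 on OT3 and 9.42 on OT6, and the mean was 9.38 ± 0.56 (SD, n = 3). On the 7 late TRAMP arrays it ran from 3.61 on T4 through a median of 3.88 to 5.76 on T5. The groups did not overlap, and T5 stood apart from the other late TRAMP arrays, whose highest was 3.98. The difference was 5.27 (SE 0.27, 95% interval 4.72 to 5.81) on the log2 scale, and it ranked 1 of the 22206 probe sets from the highest. The late TRAMP mean exceeded only 28.3% of the negative control probe sets, which are meant to show background, so no ratio is given for Slc25a21.

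Over the 64 other arrays Slc25a21 ran from 3.43 on O9 through a median of 3.94 to 5.76 on T5, and the second highest was S12 with 5.03. The level of T5 was thus the nearest to the late OPN-null TRAMP arrays, and still below the lowest of them. The means of the 11 other groups were 4.32 ± 0.57 (SPARC-null early, n = 7), 4.31 ± 0.30 (wild-type late, n = 6), 4.24 ± 0.45 (wild-type early, n = 4), 4.20 ± 0.33 (OPN-null late, n = 3), 4.11 ± 0.74 (TRAMP late, n = 7), 4.09 ± 0.36 (SPARC-null late, n = 4), 3.99 ± 0.30 (OPN-null TRAMP early, n = 6), 3.95 ± 0.20 (TRAMP early, n = 7), 3.94 ± 0.28 (SPARC-null TRAMP early, n = 6), 3.90 ± 0.22 (SPARC-null TRAMP late, n = 9) and 3.81 ± 0.36 (OPN-null early, n = 5). In this order each group differed from the next by less than the larger of their SDs, except at 1 of the 11 steps, the first, from late OPN-null TRAMP to early SPARC-null. In these 11 groups the mean exceeded 23.3% to 32.2% of the negative control probe sets, against 95.5% in late OPN-null TRAMP. The lower side of every Slc25a21 difference was therefore at the level of the array's background.

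Pax9, the neighbour whose span overlaps that of Slc25a21, was high on 2 of the 3 late OPN-null TRAMP arrays. It was 10.06 on OT2, 7.93 on OT3 and 10.20 on OT6 (mean 9.40 ± 1.27, SD, n = 3). On the 7 late TRAMP arrays it ran from 6.94 on T7 through a median of 7.57 to 7.91 on T5. The groups did not overlap, but OT3 exceeded T5, the highest late TRAMP array, only in the second decimal, and T5 was also the late TRAMP array with the highest Slc25a21 level. OT3 lay within the range of the 64 other arrays, 6.94 on T7 to 8.09 on T9 with a median of 7.57, while OT2 and OT6 lay above all of them.

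The Pax9 difference of late OPN-null TRAMP from late TRAMP was 1.91 (SE 0.25, 95% interval 1.41 to 2.41), a ratio of 3.76 (2.66 to 5.32), and ranked 75 of the 22206 probe sets. Without OT3 it was 2.65, without OT2 1.58 and without OT6 1.51. The SE, the interval and the bounds of the ratio rest on a spread pooled over all transgenic groups. The SD of Pax9 was 1.27 in late OPN-null TRAMP, against 0.09 to 0.29 in the other TRAMP groups. They therefore understate the spread of these 3 arrays, and the value without OT3 lay above the interval. OT3 had the lowest control separation of the 3 arrays, an area under the curve (AUC) of 0.683 for positive against negative control probe sets, against 0.720 on OT2 and 0.721 on OT6. The part of array quality in the Pax9 value of OT3 was not tested.

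The other groups gave Pax9 means of 7.75 ± 0.19 (SPARC-null TRAMP early), 7.70 ± 0.25 (TRAMP early), 7.70 ± 0.14 (OPN-null TRAMP early), 7.63 ± 0.09 (OPN-null late), 7.59 ± 0.14 (OPN-null early), 7.55 ± 0.26 (wild-type late), 7.55 ± 0.13 (SPARC-null early), 7.49 ± 0.29 (TRAMP late), 7.47 ± 0.09 (SPARC-null TRAMP late), 7.42 ± 0.13 (wild-type early) and 7.35 ± 0.24 (SPARC-null late), with the group sizes as above. Late OPN-null TRAMP differed from the next group by more than the larger SD, and the other 10 steps of the order were smaller than the spread. Pax9 exceeded 80.0% to 84.3% of the negative control probe sets in these groups, so its level there was above most of the background, unlike that of Slc25a21. These means still lay below the 95th percentile of the negative controls, 9.25. The lower side of the Pax9 ratio was thus not clear of the background.

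**Figure D1:**
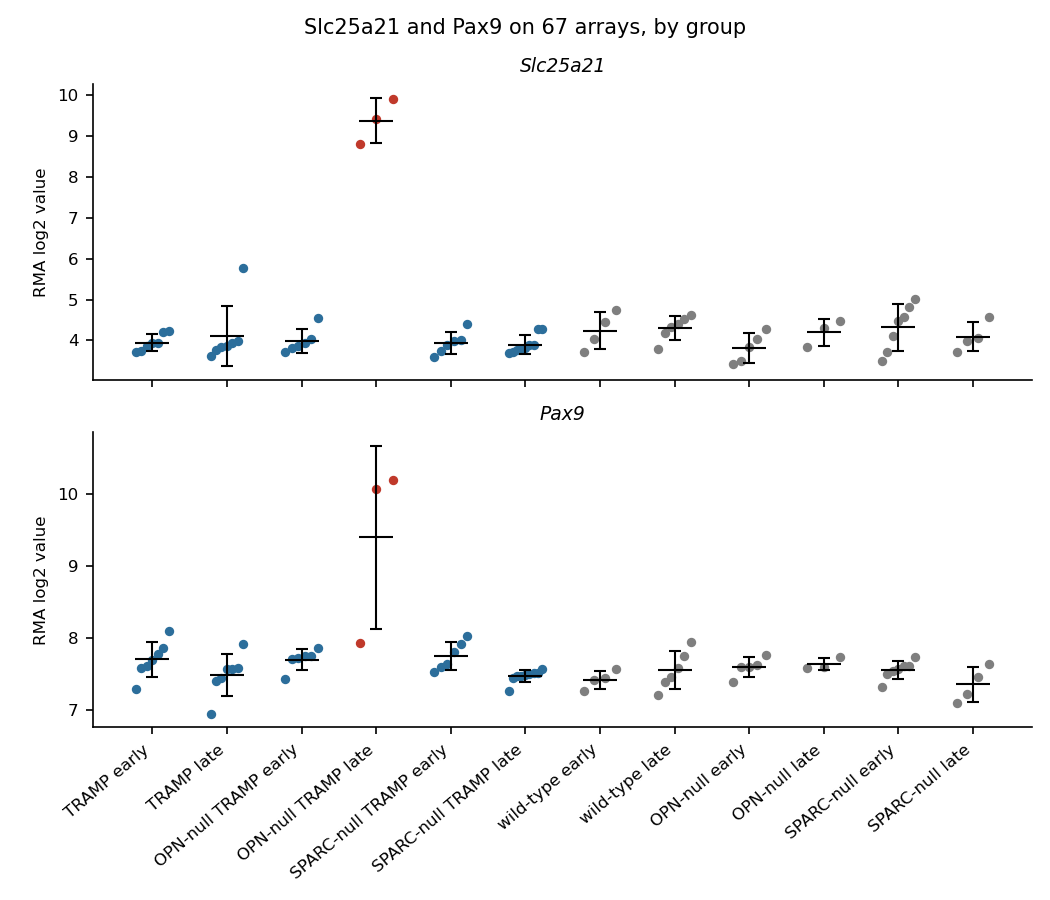
RMA log2 values of Slc25a21 (top) and Pax9 (bottom) on each of 67 arrays in 12 groups. Points are arrays (red, late OPN-null TRAMP; blue, other TRAMP groups; grey, without transgene), and bars are the mean and SD. The red points of Slc25a21, 8.80 to 9.91, lie above all others, whereas the lowest red point of Pax9, 7.93, lies among the other arrays.

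Nkx2-1, Nkx2-9 and Foxa1 gave no such pattern. Nkx2-1 was 5.24 on OT2, 5.33 on OT3 and 5.75 on OT6, against 4.87 to 5.49 with a median of 5.07 on the 7 late TRAMP arrays. The groups overlapped, and the difference was 0.34 (SE 0.14, 95% interval 0.06 to 0.62). Nkx2-9 was 5.53 on OT2, 6.25 on OT3 and 6.43 on OT6, against 6.08 to 6.63 with a median of 6.38. Its difference of -0.28 (SE 0.15, -0.58 to 0.03) came with 1 low array, and without OT2 it was -0.0037. Foxa1 was 6.63 on OT2, 5.78 on OT3 and 6.63 on OT6, against 6.27 to 6.71 with a median of 6.49, a difference of -0.13 (SE 0.23, -0.59 to 0.33). Here OT2 and OT6 lay inside the late TRAMP range and OT3 below it.

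By the call rule used throughout, a Benjamini-Hochberg adjusted p under 0.05 in limma over all 22206 probe sets, Slc25a21 and Pax9 were called higher in late OPN-null TRAMP than in late TRAMP and the other 3 were not. That is 2 of 5 genes, in a comparison in which 21.5% of all probe sets were called, and the genes were selected on this comparison, so nothing is read from the count. The same 2 of 5 had ranges that did not overlap, as did 17.9% of all probe sets. The same 2 were called against late SPARC-null TRAMP, where 29.6% of probe sets were called, against early OPN-null TRAMP (22.4%) and against late OPN-null mice without the transgene (11.9%). These 4 comparisons share the 3 late OPN-null TRAMP arrays. In the order given, the Slc25a21 differences were 5.27, 5.48 (SE 0.26), 5.39 (SE 0.28) and 5.18 (SE 0.33), and the Pax9 differences 1.91, 1.93 (SE 0.24), 1.70 (SE 0.25) and 1.76 (SE 0.26). Each SE rests on a spread pooled over the groups of its fit, which for Pax9 is smaller than that of the late OPN-null TRAMP arrays.

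Nkx2-1, Nkx2-9 and Foxa1 were called in none of these 4 comparisons. Nkx2-1 differed by 0.34, 0.23, 0.16 and 0.22, and Nkx2-9 by -0.28, -0.19, -0.27 and -0.26. Foxa1 differed by -0.13, -0.55 (95% interval -0.99 to -0.11), -0.23 and 0.48 (-0.08 to 1.04). The sign of the Foxa1 difference was not settled, as it varied with the control group and within a comparison. From late TRAMP it was 0.15 without OT3, 0.03 with 1 weight per array, 0.19 with age and 0.17 with array quality as a covariate, and from early OPN-null TRAMP it was 0.05 without OT3 and 0.18 with array quality as a covariate.

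The difference did not spread evenly over the chromosome around the locus. Among the 20 nearest named genes, 10 on each side, the median difference of late OPN-null TRAMP from late TRAMP was 0.33, against 0.03 over all probe sets, and 15 of the 20 were above 0. Of the 20, 6 were called higher and 1 lower, where 11.1% of all probe sets were called higher and 10.4% lower. The largest were Ppp2r3c, a regulatory subunit of protein phosphatase 2A, with 1.23 (SE 0.19), Pnn, encoding the splicing-associated protein pinin, with 0.65 (SE 0.23), Lrfn5, a synaptic adhesion gene, with 0.63 (SE 0.20), and Mbip, the first measured gene beyond Nkx2-1, with 0.52 (SE 0.14). The lower one was Nfkbia, the NF-kB inhibitor, with -0.49 (SE 0.16), which is named because it was alone.

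Of the 2 genes that border the locus Mbip was called and Sstr1 was not, and the difference between them was not tested. Mbip was 7.93 on OT2, 7.40 on OT3 and 8.10 on OT6, against 7.16 to 7.61 on the late TRAMP arrays, so that OT3 lay within the late TRAMP range. Sstr1, a somatostatin receptor gene beyond Foxa1, was 4.22 on OT2, 4.56 on OT3 and 3.98 on OT6, against 3.82 to 4.37. Ppp2r3c was 5.75 on OT2, 5.39 on OT3 and 6.25 on OT6, against 4.12 to 5.41, and its groups overlapped at OT3 and T3. Pnn was 9.15 to 9.79 in late OPN-null TRAMP, against 8.27 to 9.08, and Lrfn5 7.40 to 7.77, against 6.76 to 7.34. The groups of Pnn and of Lrfn5 thus did not overlap. No neighbour reached the difference of Pax9, and between Pax9 and the nearest called gene on that side stood Nkx2-9 and Nkx2-1.

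**Figure D2:**
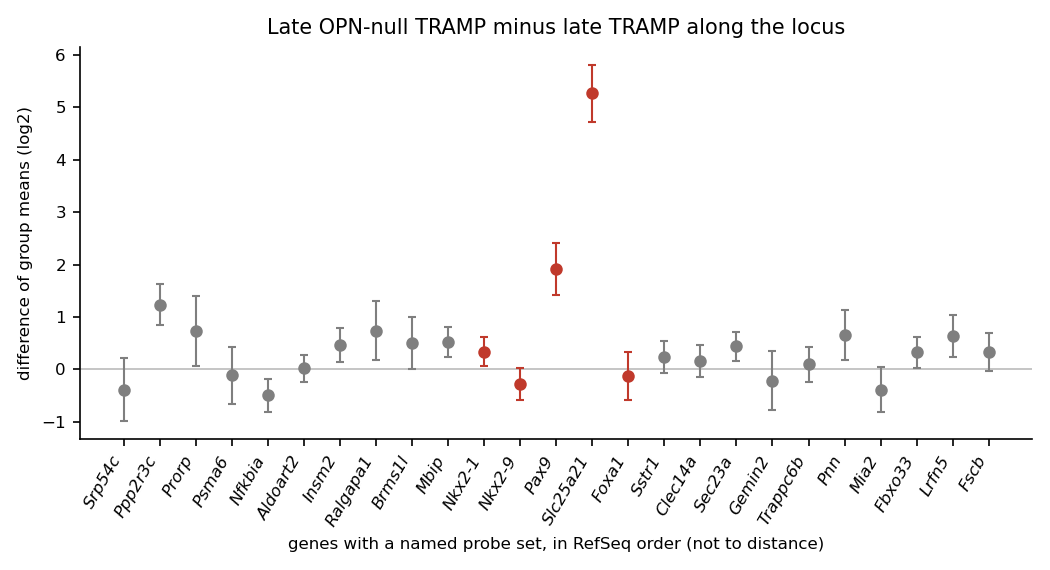
Difference of group means (log2), late OPN-null TRAMP minus late TRAMP, for 25 genes in RefSeq order along chromosome 12; spacing is by order, not distance. Red points are the 5 measured genes of the locus and grey points the 20 nearest named genes, with 95% intervals as bars; Slc25a21 at 5.27 and Pax9 at 1.91 stand above the rest, whose highest is Ppp2r3c at 1.23.

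The late OPN-null TRAMP arrays also differed in the cell type markers they carried. In the list of neuroendocrine markers 8 of 11 measured genes were called higher and 0 lower than in late TRAMP, beside 11.1% of all probe sets called higher. The mean level of the 11 was 6.55 to 6.80 on the 3 arrays against 5.41 to 5.72 on late TRAMP arrays. Over all other groups the highest array was ST22, an early SPARC-null TRAMP array with a low AUC of 0.689, with 5.93. Slc25a21 was not high there, as no array of that group exceeded 4.41. Among late TRAMP arrays T5, with the highest Slc25a21, also had the highest neuroendocrine level, 5.72. OT3 had the lowest neuroendocrine level of the 3, 6.55, beside the lowest Slc25a21 and Pax9.

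Of the smooth muscle markers 6 of 7 were called lower, beside 10.4% of all probe sets, and their mean level was 6.05 to 6.36 against 8.33 to 9.26. Called lower and none higher were 3 of 5 fibroblast, 3 of 4 urothelium and 3 of 6 leukocyte markers. For endothelium 3 of 5 were lower and 1 higher, for basal epithelium 1 of 6 was lower and 1 higher, and for skeletal muscle 1 of 5 was lower, and the last pair of lists lay near the share of all probe sets called, 21.5%. Seminal vesicle markers had 0 of 7 called and mean levels of 5.43 to 5.75 against 5.37 to 11.46. The part of this tissue make-up in the Slc25a21 and Pax9 differences was not tested, and in whole tissue fewer cells of a type and less RNA per cell cannot be told apart.

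**Figure D3:**
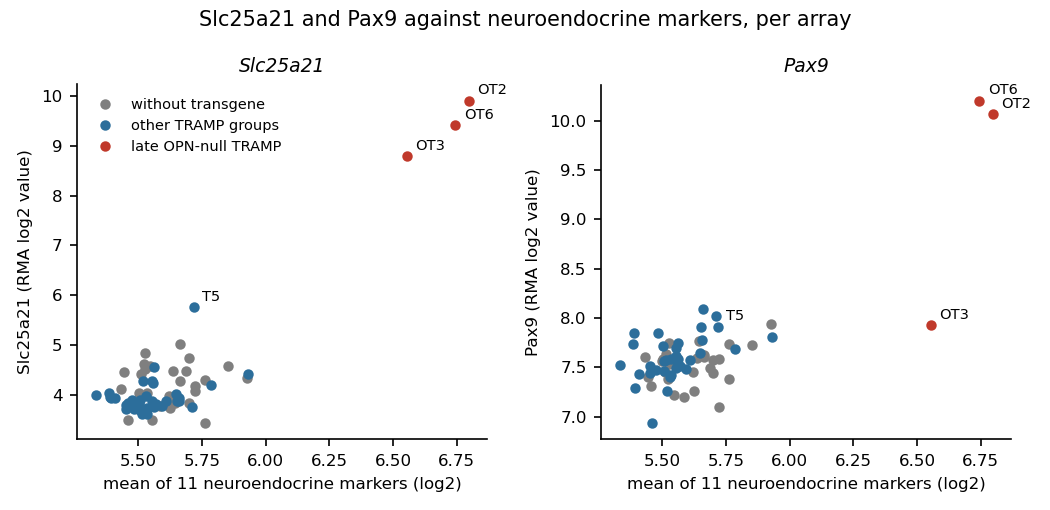
Slc25a21 (left) and Pax9 (right) RMA log2 values against the mean log2 level of 11 neuroendocrine markers, one point per array (67 arrays; red, late OPN-null TRAMP; blue, other TRAMP groups; grey, without transgene). The 3 red arrays lie at 6.55 to 6.80 on the marker axis, and T5 is the highest of the other arrays for Slc25a21 but not for Pax9.

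The genes most like Slc25a21 over the 67 arrays, by Pearson r of log2 values, were the neuronal RNA-binding genes Elavl4 (0.93) and Elavl3 (0.91), the homeobox gene Onecut1 (0.92), the protocadherin gene Pcdh8 (0.92) and the matricellular gene Ccn3 (0.90). Pax9 stood at rank 37 of 19504 genes with 0.79. Elavl4 was 8.19 to 9.84 in late OPN-null TRAMP against 4.46 to 5.49 in late TRAMP. These values rest on the 3 late OPN-null TRAMP arrays: without them the first 5 genes were Scel, Eddm3b, Pax8, Crisp3 and Vash2, with 0 of 5 shared, and Pax9 fell to rank 3525 with 0.14. The r are given as a measure of likeness with no test.

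Foxa1 acts with the androgen receptor and its partners on luminal genes of the prostate, and 16 of these genes were measured. In late OPN-null TRAMP against late TRAMP 11 of the 16 were called lower and 0 higher, beside 10.4% of all probe sets called lower, with a median difference of -1.20 against 0.03 over all probe sets. The largest were the secretory genes Pbsn (probasin, -5.39, SE 0.63), Tgm4 (prostate transglutaminase, -4.26, SE 0.60) and Msmb (beta-microseminoprotein, -2.78, SE 0.73), and Agr2, a protein disulfide isomerase of secretory cells (-2.33, SE 0.42). The mouse's own Pbsn had a mean of 4.95 in late OPN-null TRAMP against 10.33 in late TRAMP. The forkhead relatives Foxa2 (-0.07) and Foxa3 (0.10) were not called.

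Lists tied to the other members are given beside the 21.5% of all probe sets called in this comparison. Of 12 NKX2-1-regulated lung and thyroid genes 1 was called, Abca3, a lipid transporter, lower at -0.97 (SE 0.16), and of 5 other NKX2 genes 1 was called, Nkx2-2, higher by 0.43 (SE 0.15). Of the 8 other PAX genes 0 were called in limma. In the pathway that makes and uses 2-oxoadipate, 2 of 13 were lower, Hadh (-1.49, SE 0.31) and Echs1 (-0.46, SE 0.13), and 1 higher, Pipox (0.50, SE 0.17). Of 11 other mitochondrial carriers 3 were lower, Slc25a11 (-0.64, SE 0.17), Slc25a10 (-0.43, SE 0.15) and Slc25a15 (-0.32, SE 0.12), and 0 higher. The counts of the pathway and carrier lists were near the share of all probe sets.

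The comparisons that do not use the late OPN-null TRAMP arrays were tested. Over 12 comparisons and 5 genes, 60 tests in all, limma called 0 at an adjusted p under 0.05, and 2 had an unadjusted p under 0.05, both of Foxa1. The early OPN-null TRAMP mice, which share the OPN deletion with the late ones, had 0 of 5 called against early TRAMP (0.0045% of all probe sets called) and 0 of 5 against early OPN-null mice (0.0946%). Slc25a21 differed there by 0.05 (SE 0.22, 95% interval -0.39 to 0.49) and 0.18 (SE 0.25, -0.32 to 0.68), and Pax9 by -0.0033 (SE 0.20, -0.41 to 0.40) and 0.10 (SE 0.19, -0.28 to 0.49). Without the transgene, OPN-null and wild-type mice differed in Slc25a21 by -0.26 (SE 0.19, -0.66 to 0.14) and in Pax9 by 0.13 (SE 0.09, -0.06 to 0.32), with 0 of 5 genes and 0.0045% of probe sets called.

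The transgene and age comparisons likewise had no call among the 5 genes. Early and late TRAMP against wild type of the same age had 0 of 5 called (0.036% and 0.63% of all probe sets), and early and late SPARC-null TRAMP against SPARC-null had 0 of 5 (2.51% and 1.27%). Late against early TRAMP had 0 of 5 and late against early SPARC-null TRAMP 0 of 5 (0% of all probe sets in each, with 1063 and 4747 at an unadjusted p under 0.05). In the last, Pax9 differed by -0.28 (SE 0.19, -0.66 to 0.10) and Foxa1 by 0.31 (SE 0.17, -0.04 to 0.66). Over the 12 comparisons the Slc25a21 differences ran from -0.38 to 0.18, with interval bounds of -0.83 to 0.68. Both sides of each Slc25a21 difference lay at the background level, and the locus was chosen by Slc25a21 in late OPN-null TRAMP. These intervals are therefore not set against the difference of that group. For Nkx2-1 the differences ran from -0.19 to 0.22 and for Nkx2-9 from -0.29 to 0.24.

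The levels of the NKX2 genes differed little between groups. Nkx2-1 group means ran from 5.04 ± 0.08 (wild-type early) to 5.44 ± 0.27 (OPN-null TRAMP late), and between them lay 5.10 ± 0.20 (TRAMP late), 5.11 ± 0.10 (SPARC-null late), 5.21 ± 0.14 (SPARC-null TRAMP late), 5.22 ± 0.34 (OPN-null late), 5.25 ± 0.21 (TRAMP early), 5.26 ± 0.23 (OPN-null early), 5.27 ± 0.14 (SPARC-null early), 5.28 ± 0.13 (OPN-null TRAMP early), 5.29 ± 0.22 (wild-type late) and 5.32 ± 0.26 (SPARC-null TRAMP early). These means exceeded 44.4% to 51.9% of the negative control probe sets and lay about their median of 5.37, so in no group did Nkx2-1 stand clear of the background. Nkx2-9 means ran from 6.07 ± 0.48 (OPN-null TRAMP late) through 6.10 ± 0.16 (wild-type early), 6.26 ± 0.11 (SPARC-null TRAMP late), 6.27 ± 0.21 (TRAMP early), 6.32 ± 0.20 (OPN-null late), 6.34 ± 0.24 (OPN-null TRAMP early), 6.34 ± 0.50 (wild-type late), 6.34 ± 0.19 (TRAMP late), 6.36 ± 0.19 (OPN-null early), 6.37 ± 0.19 (SPARC-null early) and 6.43 ± 0.20 (SPARC-null TRAMP early) to 6.55 ± 0.29 (SPARC-null late). Nkx2-9 means exceeded 62.1% to 70.7% of the negative control probe sets, a smaller share than those of Pax9. Neither NKX2 gene had a step between neighbouring groups larger than the spread.

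Foxa1 was the one gene of the locus with a difference near the threshold, and it lay between SPARC genotypes. In mice without the transgene Foxa1 ran from 6.25 through a median of 6.75 to 7.14 on the 7 early SPARC-null arrays, and was 6.35 on S2, 7.10 on S3, 7.67 on S5 and 7.44 on S6 at the late age. In wild-type mice it was 6.24 on B8, 6.07 on B10, 6.80 on B11 and 6.06 on B13 early, and ran from 6.15 through a median of 6.24 to 6.63 on the 6 late arrays. The groups overlapped, with the SPARC-null arrays reaching higher. The difference, both ages averaged, was 0.63 (SE 0.15, 95% interval 0.32 to 0.95), with an unadjusted p of 0.000318 and an adjusted p of 0.0946 in limma, so it was not called, 0 of 5 genes and 0.225% of all probe sets being called in that comparison.

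Late SPARC-null TRAMP mice had a Foxa1 range of 6.33 to 7.40 with a median of 6.88 over 9 arrays, against 6.27 to 6.71 with a median of 6.49 in late TRAMP. That difference of 0.42 (SE 0.16, 0.09 to 0.76) had an unadjusted p of 0.0146 in limma and an adjusted p of 0.999, with 0 of 5 genes and 0.00901% of all probe sets called. The SPARC-null mice were 24 to 29 weeks old and the others 24 to 25, and with age as a covariate the difference was 0.83 with an adjusted p of 0.0498 in limma, a call. Over 7 settings of the fit the difference ran from 0.26 to 0.83, and Foxa1 was called in the age setting alone. The SPARC-null TRAMP mice of 24 weeks, ST15 and ST16, had the highest AUCs of their group, 0.780 and 0.761, so age and array quality were mixed there. At the early age the difference was 0.21 (SE 0.18, -0.15 to 0.58), with 0 of 5 genes and 0.018% of probe sets called. The order of Foxa1 group means was 7.14 ± 0.58 (SPARC-null late), 6.90 ± 0.33 (SPARC-null TRAMP late), 6.71 ± 0.31 (SPARC-null early), 6.59 ± 0.46 (SPARC-null TRAMP early), 6.58 ± 0.25 (OPN-null TRAMP early), 6.47 ± 0.14 (TRAMP late), 6.38 ± 0.38 (TRAMP early), 6.35 ± 0.49 (OPN-null TRAMP late), 6.30 ± 0.19 (wild-type late), 6.29 ± 0.35 (wild-type early), 6.23 ± 0.29 (OPN-null early) and 5.87 ± 0.46 (OPN-null late). The 4 SPARC-null groups stood first, though no neighbouring pair differed by more than the larger SD. Foxa1 means exceeded 57.6% to 78.7% of the negative control probe sets, a smaller share than those of Pax9.

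**Figure D4:**
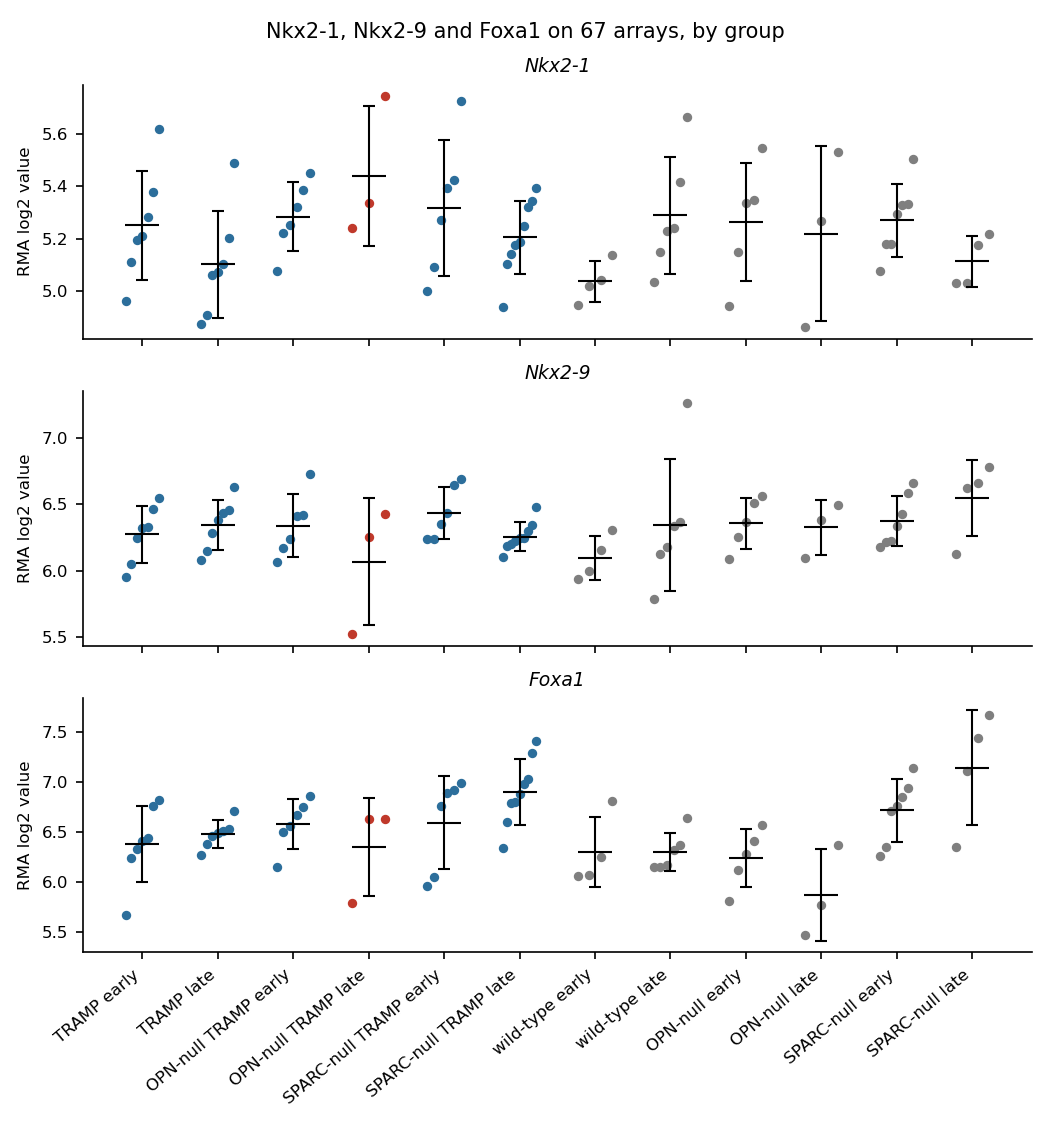
RMA log2 values of Nkx2-1, Nkx2-9 and Foxa1 on each of 67 arrays in 12 groups, coloured as in the plot of Slc25a21 and Pax9, with mean and SD as bars. Late OPN-null TRAMP does not stand apart for any of the 3 genes, and Foxa1 is highest in late SPARC-null mice with a mean of 7.14.

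The Foxa1 level moved with array quality. After group means were removed, Foxa1 and the AUC correlated over 67 arrays with Pearson's r of 0.698 and Spearman's rho of 0.765, both with a permutation p of 1e-05, the smallest that 100000 permutations can give, and an adjusted p of 5e-05 over 5 genes. Without the 2 arrays of most extreme AUC r was 0.731. The mean AUC was 0.777 in late and 0.746 in early SPARC-null mice, against 0.735 in late and 0.750 in early wild-type mice. With the AUC as a covariate the SPARC-null difference of Foxa1 was 0.48 with an adjusted p of 0.0925. With 1 weight per array it was 0.67 and limma's adjusted p was 0.0019, without the 7 arrays of low AUC 0.63 and 0.0276, and without S2 0.76 and 0.0303, so the call depended on these choices.

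**Figure D5:**
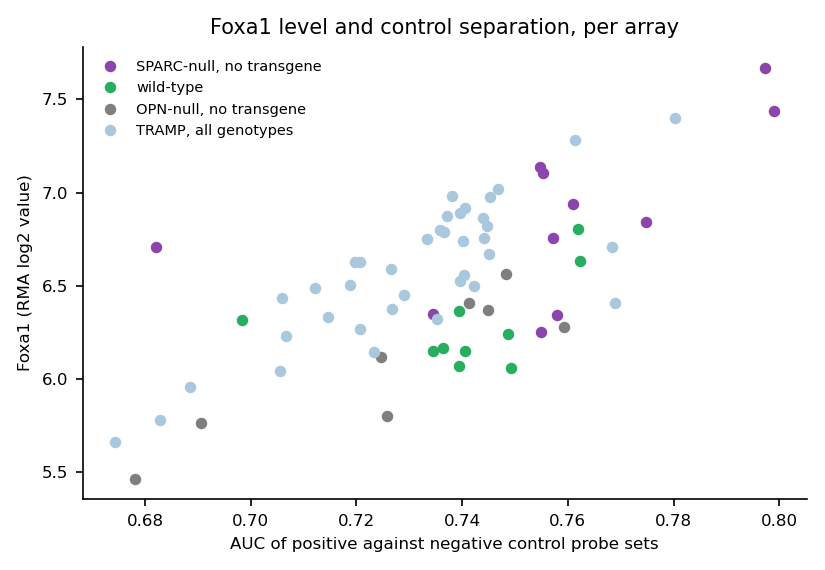
Foxa1 RMA log2 value against the AUC of positive over negative control probe sets, one point per array for 67 arrays (purple, SPARC-null; green, wild type; dark grey, OPN-null, all without the transgene; light blue, TRAMP of all genotypes). Foxa1 rises with the AUC, and the 2 arrays with the highest Foxa1, S5 and S6 with 7.67 and 7.44, lie at the right end of the axis.

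No relation between members within groups passed the test. Over the 64 arrays outside late OPN-null TRAMP, with group means removed, 0 of 10 pairs had an adjusted permutation p under 0.05. The strongest was Slc25a21 with Foxa1, with r of -0.309 (permutation p = 0.00701, adjusted p = 0.0701), rho of -0.304 (permutation p = 0.0238, adjusted p = 0.191) and r of -0.336 without S11 and T5, the 2 arrays farthest in Slc25a21. Slc25a21 and Pax9 had r of 0.268 (permutation p = 0.0982, adjusted p = 0.246) and rho of 0.0983 (permutation p = 0.467, adjusted p = 0.778), and r was 0.0726 without S11 and T5, so that the relation rested on those arrays.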

How the data were processed

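The deposited log2 values were made by the authors with RMA in the oligo package, per the submitters' processing notes, in versions not given in the sources used here. RMA subtracts background, makes the arrays' distributions equal and summarises the probes of a probe set, so differences at low signal are compressed. The values ran from 2.70 to 13.74 on 68 arrays. Of 29129 probe sets 6923 were controls and were left out, and 22206 were tested without a filter on signal. Probe sets were named through the platform annotation (1 symbol for 19572, none for 2634), whose 19572 Entrez identifiers all matched RefSeq genes (GRCm38.p6). The sources used here give no genome build for the arrays, so gene order comes from RefSeq and the coordinates printed are those of RefSeq promoter windows.

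Groups follow genotype and age in the labels. Fits used limma 3.58.1 in R 4.3.3 (lmFit, eBayes, 2-sided) in 3 sets: 38 transgenic arrays, 29 without the transgene, and all 67 with a weight per transgene status. P-values were adjusted by Benjamini-Hochberg over 22206 probe sets, and adjusted p under 0.05 was called. Of a gene with several probe sets the brightest by mean was used. P-values measure the spread between these animals, with an estimate per probe set that all groups of a set share. The 67 arrays held 0 identical pairs. AUC is the area under the curve of positive against negative control probe sets, 0.674 to 0.799, and 7 arrays lay under 0.7. The relation with the AUC was added after seeing the data and tested by 100000 permutations within groups. The scripts were tested on simulated data. Alternatives were each array left out, compared groups only, array weights, age or AUC as covariate, low-AUC arrays left out, dim probe sets left out, and a trended robust prior.

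The members, the lists and the naming rule (all members, the 5 genes most like Slc25a21, Foxa1 and Nkx2-1, and at most 4 called genes of a list by size) were chosen with earlier results of these data known. The lists were wider neighbourhood, androgen receptor partners and luminal genes, NKX2-1-regulated genes, other NKX2 genes, other PAX genes, 2-oxoadipate pathway, other mitochondrial carriers, and markers of 9 cell types or tissues.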

Additional observations from a re-analysis of the deposited data

Results flagged for a closer look

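Among 50 sets of values (a gene in a group of 4 to 10 arrays), 3 had an array far from the rest by Dixon's criterion, which chance gives for about 1 in 20. T5 was high for Slc25a21 in late TRAMP, 5.76 with the next array at 3.98. OT12 was low for Pax9 in early OPN-null TRAMP, 7.42 with the next at 7.70, and ST6 was low for Pax9 in late SPARC-null TRAMP, 7.26 with the next at 7.44. The array O12, which the groups leave out, lay above the highest early wild-type array for Foxa1, 7.05 against 6.80, for Pax9, 7.66 against 7.56, and for Nkx2-1, 5.16 against 5.14.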

How the results depend on the processing

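In the 12 tested comparisons 245 of 251 recomputed counts of called members were unchanged. The exceptions were SPARC-null against wild type without the transgene, with 2 called (Foxa1 and Nkx2-9) with 1 weight per array, 1 without the low-AUC arrays and 0 to 1 when each array was left out (1 without S1 or S2); late SPARC-null TRAMP against SPARC-null, with 1 (Nkx2-9) with 1 weight per array; and late SPARC-null TRAMP against TRAMP, with 1 (Foxa1, 0.83, adjusted p 0.0498 in limma) with age as a covariate. The late OPN-null TRAMP difference of Slc25a21 was 5.002 to 5.56 from late TRAMP, 5.21 to 5.77 from late SPARC-null TRAMP, 5.12 to 5.67 from early OPN-null TRAMP and 4.91 to 5.46 from late OPN-null when each array was left out, and 5.83 from late OPN-null without the low-AUC arrays, which leaves 1 late OPN-null array. That of Pax9 from late TRAMP was 1.51 to 2.65. Signs turned for Nkx2-9 without OT2 (0.083 from late SPARC-null TRAMP, 0.0016 from early OPN-null TRAMP, 0.015 from late OPN-null; without OT6 it was -0.37, -0.45 and -0.43) and for Foxa1 from early OPN-null TRAMP (0.18 with the AUC as a covariate, 0.05 without OT3, which the low-AUC setting also leaves out) and from late TRAMP (0.17 with the AUC, 0.19 with age, 0.03 with array weights, 0.15 without OT3); the cause was not tested. Leaving out dim probe sets removed Slc25a21 and Nkx2-1, so those fits gave them no value. No paired analysis was possible because the labels give each array an animal code of its own and name no pairs. Another probe set could not be tried, since each measured gene had 1. None of the 10 correlations between members changed its call with all 67 arrays. The number of arrays, 3 in late OPN-null TRAMP, and background-level signal for Slc25a21 and Nkx2-1 limit these results. So does the signal of Nkx2-9 and Foxa1, which stood above the background less clearly than that of Pax9.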

Other observations

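The genes most like Foxa1 over the 67 arrays, by Pearson r of log2 values, were Acat1 (0.77), Eif6 (0.76), Retreg2 (0.75), Tmem59 (0.75) and Psma2 (0.75), and without the late OPN-null TRAMP arrays 2 of these 5, Acat1 and Tmem59, were again among the first 5. Acat1 encodes the mitochondrial acetoacetyl-CoA thiolase, which acts in the last steps of lysine breakdown. The genes most like Nkx2-1 reached only 0.56 (Tspyl5), 0.50 (Lingo4), 0.50 (Hs3st4), 0.49 (Gkn1) and 0.49 (Olfr733), and 2 of 5 remained without those arrays. These r are descriptions, and the arrays share groups and array quality.

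Away from late OPN-null TRAMP, few genes of the lists were called in limma. In early SPARC-null TRAMP against early SPARC-null mice 2.51% of all probe sets were called, and 1.05% were called lower. The list genes called there were lower: Srp54c, a neighbour of the locus (-0.96, limma adjusted p 0.0447), Pax2 (-0.62, adjusted p 0.0312), Aldh7a1, an enzyme of lysine breakdown (-0.92, adjusted p 0.00846), and Trp63, a basal epithelial marker (-0.73, adjusted p 0.0215). At the late age, with 1.27% of all probe sets called and 0.36% called lower, Aldh7a1 (-0.85, limma adjusted p 0.0492) and Trp63 (-0.80, adjusted p 0.0312) were called lower too. Nothing is read from the number of these calls. Both comparisons set tumour-prone mice against mice without the transgene.

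After group means were removed, Nkx2-9 fell with the AUC over 67 arrays (r = -0.388, permutation p = 0.00237, adjusted p = 0.00592 over 5 genes; rho = -0.328, permutation p = 0.0144, adjusted p = 0.0361; r = -0.333 without the 2 arrays of most extreme AUC). For Slc25a21 r was -0.138 (permutation p = 0.307) and rho -0.119 (permutation p = 0.372), for Pax9 -0.0548 (permutation p = 0.718) and -0.25 (permutation p = 0.0724), and for Nkx2-1 -0.182 (permutation p = 0.212) and -0.156 (permutation p = 0.268). The lowest adjusted p of these was 0.121.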
